A study of Mus musculus with 15 samples.

Results

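Green unroasted coffee was compared with the high-fat diet alone in mouse liver. The comparison set the 3 arrays of the HFGC group against the 3 arrays of the HF group, which are 6 of the 15 arrays of the series and were chosen by their labels. Mice of the HFGC group ate a high-fat diet, in which fat gave 60% of the energy and to which 2% of a freeze-dried green coffee, unroasted and caffeinated, had been added. The HF mice ate that diet with no coffee. The HFCC and HFDC groups, which received 2% of a caffeinated or a decaffeinated freeze-dried coffee in that diet, and the ND group, fed a normal diet with 10% of its energy as fat, had 3 arrays each. All mice were male C57BL/6J, an inbred strain prone to obesity when its food is rich in fat, entered the experiment at 7 weeks of age and ate these diets for 9 weeks. By the methods of the study, the 3 mice of each group were selected at random from a larger group, and each array holds the liver of 1 mouse.

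The liver takes up fatty acids and stores them as triacylglycerol in lipid droplets, whose surface carries coat proteins of the perilipin family. In a liver that accumulates fat, genes that are normally those of fat tissue and that the nuclear receptor PPARg controls are known to be switched on, while the related receptor PPARa controls the burning of fatty acids. Cholesterol synthesis is controlled by SREBP2, and the folding of secreted proteins in the endoplasmic reticulum is served by chaperones whose genes respond when folding falls behind. Coffee brings caffeine, which is cleared by the liver enzyme CYP1A2, and chlorogenic acids, the main polyphenols of green coffee.

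Expression was measured as RMA intensity of Affymetrix Mouse Genome 430 2.0 arrays, of which log2 was taken, and every value below is a log2 intensity or a log2 difference unless it is called a fold. Of 18193 genes, limma called 142 higher (0.781%) and 421 lower (2.31%) in the HFGC group than in the HF group, where a gene was called if its p, adjusted over all genes by the Benjamini-Hochberg method, was under 0.05. With another normalization between the arrays, cyclic loess, these counts were 220 higher and 221 lower. An unadjusted p under 0.05 in limma was reached by 3747 of the 18193 genes. The shares over all genes, called or unadjusted, are the background for the counts of the gene lists below. Those lists were drawn up with earlier results of these data known. The changes were small. The called genes had a median log2 difference of 0.50 where they rose and -0.40 where they fell, and only 3 rose and 7 fell by at least 2-fold. The median over all genes was 0.0088, and the median standard error of a difference was 0.092. In 562 of the 563 called genes the 3 HFGC arrays did not overlap the 3 HF arrays, but this was also so in 1730 genes higher (9.51%) and 2461 genes lower (13.5%) among all genes tested. No source used here says that the mice of a group were housed apart, and the p-values measure the spread between these mice only, and the number of arrays limits the precision.

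The 3' minus 5' signal, averaged over the control probe sets for Gapdh and for Actb, which grows as RNA is degraded, was 0.89, 0.89 and 0.70 in the HFGC arrays and 1.08, 1.40 and 1.17 in the HF arrays, in the order of their replicate numbers. The groups did not overlap and differed by -0.39 (p = 0.1 in an exact two-sided permutation test, which cannot go lower with 3 against 3 arrays), and the ND arrays averaged 0.88 ± 0.06 (SD, n = 3). With this value as a covariate limma called 0 genes (1549 at an unadjusted p under 0.05, against 3747 without it), although 562 of the 563 genes kept their sign, at a median of 0.55 of the difference for higher and 0.73 for lower genes. HF replicate 1 lay nearest to the HFGC arrays in 449 of the 563 called genes, at a median of 61.2% of the distance of the other HF arrays. Without HF replicate 1 the count of called genes was 1860, whereas it was 2 without HF replicate 2 and 2 without HF replicate 3. It was 70, 117 and 40 without HFGC replicate 1, 2 and 3. The part of RNA quality and of single mice in the differences was not tested.

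**Figure D1:**
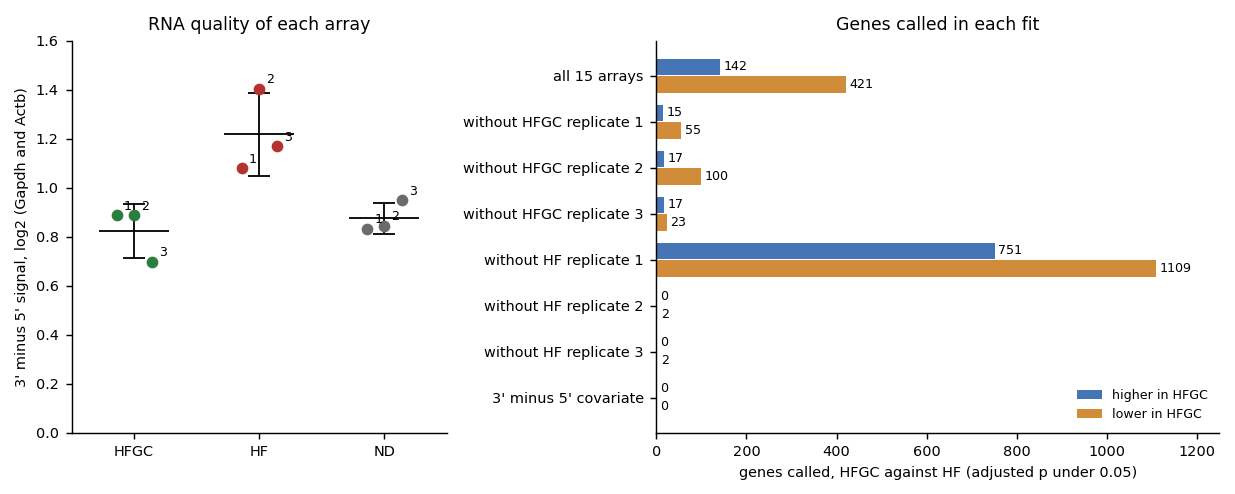
Left, 3' minus 5' signal on the log2 scale, averaged over Gapdh and Actb, for each HFGC, HF and ND array (points with replicate numbers), with a line at the mean and a bar for the SD of 3 arrays. Right, number of genes called higher and lower in the HFGC group than in the HF group with all 15 arrays, without each HFGC or HF array, and with the 3' minus 5' value added to the model; the count lies between 2 and 1860 without 1 array and is 0 with the covariate.

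A few genes of fat storage were lower in the HFGC group. A list of PPARg targets and other genes of fat uptake and storage, with Pparg itself, had 21 measured members. Of these 4 fell, 0 rose and 17 did not pass, with a median log2 difference of -0.37 beside 0.0088 over all genes. Plin4, which encodes a perilipin that coats lipid droplets, had log2 intensities of 7.44, 7.04 and 7.61 in the HFGC group, against 8.57, 9.07 and 8.96 in the HF group. All HFGC arrays lay below all HF arrays, and Plin4 fell 2.83-fold (standard error of the log2 difference 0.17, adjusted p = 0.00211). The ND group, at 7.03 ± 0.35 (SD, n = 3), lay in the same range as the HFGC group. The perilipin Plin5, which ties droplets to mitochondria, was at 10.39, 9.93 and 10.22 in the HFGC group, and at 10.85, 10.89 and 10.60 in the HF group. It fell by 0.60 (standard error 0.15, adjusted p = 0.0475). Plin4 and Plin5 are neighbours on chromosome 17 of GRCm38.p6, at chr17:56100587-56109948 and chr17:56111597-56117606, with 1649 bases between them. The genes on either side, Hdgfl2 and Lrg1, had differences of -0.23 and -0.39 that did not pass (adjusted p = 0.0922 and 0.0856).

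Cd36, Mogat1 and Gpat3 fell too, while Gpam, Dgat1 and Dgat2, other enzymes of triacylglycerol synthesis, had differences of -0.21, -0.25 and -0.22 that did not pass (adjusted p from 0.12 to 0.288). Cd36, a fatty acid transporter of the cell membrane, was measured at 9.35, 9.14 and 9.30 in the HFGC group, against 9.99, 10.24 and 10.34 in the HF group. The HFGC arrays sat within a narrow band below the lowest HF array, and Cd36 fell by 0.93 (standard error 0.21, adjusted p = 0.0341). Mogat1, an acyltransferase that turns monoacylglycerol into diacylglycerol, had log2 intensities of 6.23, 5.98 and 6.28 in the HFGC group, and 6.67, 6.75 and 7.10 in the HF group. It fell by 0.68 (standard error 0.16, adjusted p = 0.0388). Gpat3, which starts triacylglycerol synthesis by adding a fatty acid to glycerol phosphate, was at 7.02, 6.85 and 6.17 in the HFGC group, against 7.80, 8.03 and 7.86 in the HF group. HFGC replicate 3 was the lowest array, and Gpat3 fell by 1.21 (standard error 0.24, adjusted p = 0.0262). Of the members of the fat storage list that did not pass, Fabp4, a carrier of fatty acids in fat cells, had a difference of -1.01 (adjusted p = 0.121). Cidec, which fuses lipid droplets, was at -0.91 (adjusted p = 0.0943), and Pparg itself at -0.36 (adjusted p = 0.19). Pparg was chosen after its values were seen, as was Plin2. Plin2, the most widely expressed perilipin of the liver, had values of 13.02, 12.79 and 12.60 in the HFGC group and 13.30, 13.32 and 13.01 in the HF group, which overlapped.

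Among 12 measured lipases and their partners, 1 fell and 0 rose, with a median of -0.19. The gene called was Abhd5, which activates the main triacylglycerol lipase of lipid droplets. Abhd5 was measured at 7.75, 7.87 and 7.67 in the HFGC group, and at 8.10, 8.09 and 8.15 in the HF group. It fell by 0.35 (standard error 0.09, adjusted p = 0.0443), and the ND group at 8.14 ± 0.18 (SD, n = 3) lay with the HF arrays. Its other probe sets, of which the first is about as bright and the other dim, were at -0.05 and 0.04. Mgll, which splits monoacylglycerol, had a difference of -0.53 with no overlap that did not pass (adjusted p = 0.057). Of the genes with the largest falls outside the lists, Nceh1, a hydrolase of cholesterol esters, fell by 0.84 (adjusted p = 0.0463) and Pdp2, a phosphatase that activates pyruvate dehydrogenase, by 0.94 (adjusted p = 0.0354). Of the 8 genes called in these paragraphs on fat, with Pdp2 counted among them, only Plin4 passed without HF replicate 2 (adjusted p from 0.0261 to 0.20) or HF replicate 3 (0.0287 to 0.151). All but Plin5 passed without HF replicate 1, 3 without HFGC replicate 1, and 1 passed without HFGC replicate 2 or 3. When the 3' minus 5' value was a covariate, the differences of these 8 were between -1.41 and -0.23.

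The largest fall of any called gene was in a list of the cytoskeleton and liver injury, which also holds Osbpl3. Of 27 measured genes of this list 5 fell, 0 rose and 22 did not pass, and the median was -0.12. Over all genes 2.31% were called lower. The list was drawn up with earlier results of these data known, so its count is no independent evidence of a theme. Lgals1, a galectin that binds sugars on the cell surface and is known to rise in injured liver, had log2 intensities of 9.10, 8.71 and 9.02 in the HFGC group, against 9.99, 10.95 and 10.87 in the HF group. HF replicates 2 and 3 were the highest arrays and HF replicate 1 lay between them and the HFGC group. Lgals1 fell by 1.66 (standard error 0.31, adjusted p = 0.0233), or 3.15-fold, and its other probe set was at -1.58. The ND group was lower still, at 7.70 ± 0.66 (SD, n = 3). Osbpl3, a protein that binds oxysterols and phospholipids at membrane contacts, was at 5.01, 4.96 and 5.01 in the HFGC group, and at 6.06, 6.72 and 6.55 in the HF group. The HFGC arrays lay close together, and Osbpl3 fell by 1.45 (standard error 0.12, adjusted p = 0.000126), with the ND group at 4.98 ± 0.14 (SD, n = 3). The HFGC and ND levels are in the dim range of the array, so that the size of the fall is uncertain, and its dimmer probe sets were at -0.96 and 0.05. Plin4 and Osbpl3 were the 2 genes that were called in each of the 6 fits that left out 1 HFGC or HF array.

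The other 3 are parts of the actin skeleton or bind to it. Tpm2, a tropomyosin that runs along actin filaments, was measured at 9.17, 8.39 and 7.89 in the HFGC group, against 9.47, 10.06 and 10.02 in the HF group. It fell by 1.37 (standard error 0.32, adjusted p = 0.0369), with HFGC replicate 1 close to HF replicate 1. Tmsb10, a thymosin that binds free actin, had log2 intensities of 10.03, 9.75 and 9.49 in the HFGC group, and 10.34, 10.56 and 10.28 in the HF group. The fall was 0.63 (standard error 0.14, adjusted p = 0.0326). Anxa2, an annexin that links membranes to actin, was at 8.20, 7.81 and 7.72 in the HFGC group, against 8.34, 8.55 and 8.40 in the HF group. Here HFGC replicate 1 lay just under the HF arrays, and Anxa2 fell by 0.52 (standard error 0.11, adjusted p = 0.032). Cdkn1a, an inhibitor of the cell cycle that rises on damage, had a difference of -0.53 that did not pass (adjusted p = 0.278). Without HF replicate 2 or 3 the falls of the 4 genes other than Osbpl3 did not pass (adjusted p up to 0.164 and 0.13), without HFGC replicate 1 the count was 4 of 5, and it was 1 without HFGC replicate 2 or 3. With the covariate the 5 differences were between -1.53 and -0.34.

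**Figure D2:**
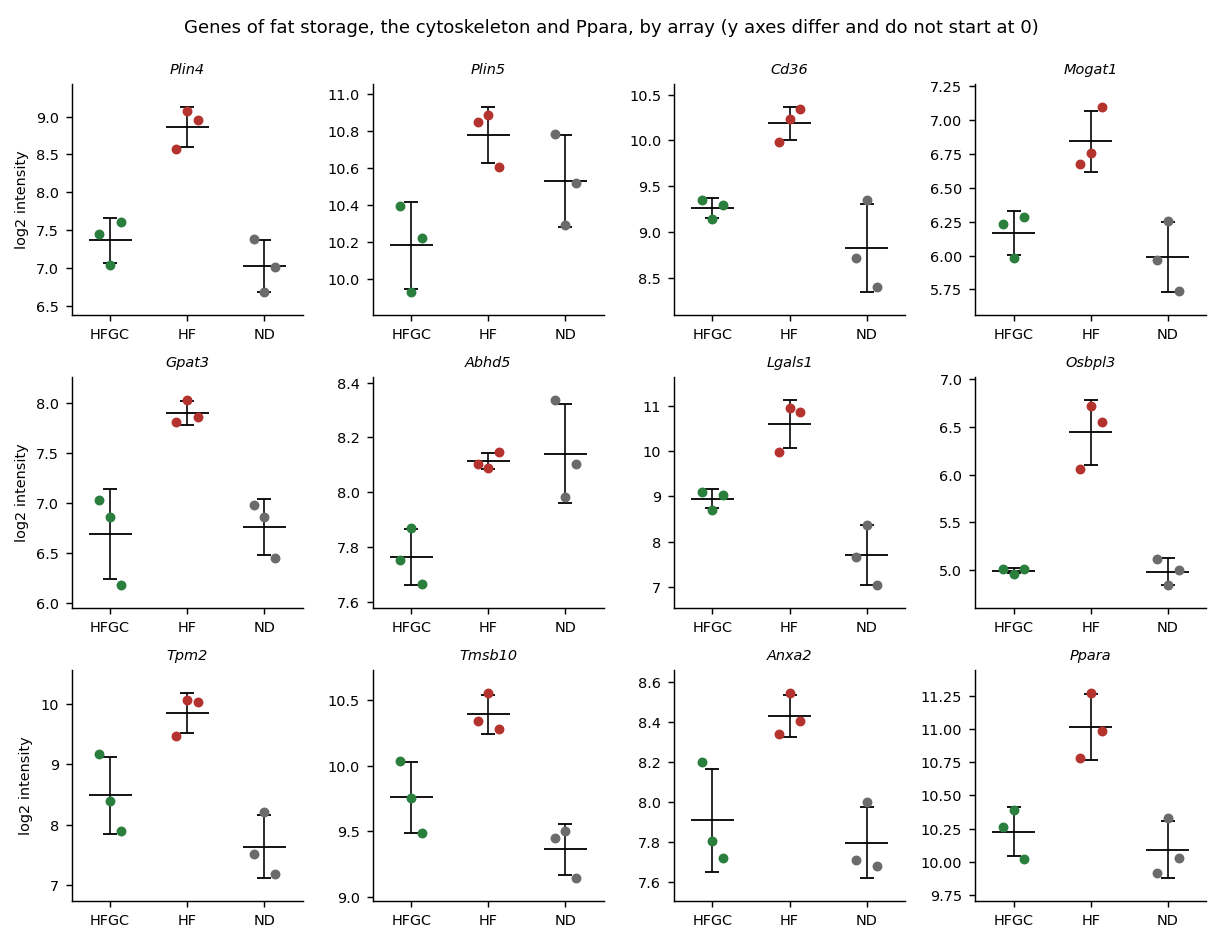
Log2 intensity of 12 genes in each HFGC, HF and ND array (points, 3 per group), with a line at the mean and a bar for the SD. The HFGC points of all 12 genes lie below the HF points, for Plin4 between 7.04 and 7.61 in the HFGC group and between 8.57 and 9.07 in the HF group.

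Several receptors and transcription factors of liver metabolism were lower in the HFGC group. Ppara, the nuclear receptor that switches on fatty acid oxidation in fasting, was measured at 10.26, 10.39 and 10.02 in the HFGC group, and at 10.78, 11.27 and 10.98 in the HF group. It fell by 0.79 (standard error 0.13, adjusted p = 0.0161), with -0.86 and -0.74 in its other probe sets, and the ND group at 10.09 ± 0.22 (SD, n = 3) lay with the HFGC arrays. Ppara was the only one of 32 measured genes of fatty acid oxidation and PPARa targets that was called, beside 2.31% called lower over all genes. The median of that list was -0.18. Of the targets, Angptl4, which inhibits lipoprotein lipase, had a difference of -1.05 (adjusted p = 0.133) and Pex11a, which divides peroxisomes, of -0.64 (adjusted p = 0.167). The arrays of both did not overlap between the groups, and neither passed.

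Foxo1, a factor that insulin silences and that promotes glucose production, had log2 intensities of 8.32, 8.42 and 8.40 in the HFGC group, against 8.72, 9.19 and 8.91 in the HF group. It fell by 0.56 (standard error 0.10, adjusted p = 0.0164) and was the 1 called of 27 measured genes of glucose metabolism, whose median was -0.04. Over all genes 2.31% were called lower. Nr5a2, a receptor that promotes bile acid synthesis, was at 8.85, 9.09 and 9.05 in the HFGC group, and at 9.32, 9.55 and 9.44 in the HF group. It fell by 0.44 (standard error 0.09, adjusted p = 0.0265) as the 1 called of 23 measured bile acid genes, of which 11 lay above 0 and 12 below, and its other probe sets were at -0.59, 0.08 and 0.09. Scarb1, the receptor that takes up cholesterol from high-density lipoprotein, was measured at 9.81, 9.58 and 9.72 in the HFGC group, against 10.06, 10.31 and 10.15 in the HF group. Its fall of 0.47 (standard error 0.10, adjusted p = 0.0271) was the only call among 21 measured genes of apolipoproteins and lipoprotein assembly, and its other probe sets were at -0.54 and -0.59. Among the 28 immediate early and glucocorticoid-responsive genes, Ifrd1 rose, Junb fell and 26 did not pass. Junb, a part of the AP-1 factor, had log2 intensities of 5.81, 6.19 and 6.08 in the HFGC group, and 6.62, 7.24 and 6.59 in the HF group. It fell by 0.79 (standard error 0.18, adjusted p = 0.034). The kinase gene Pim1, which cytokines induce, fell by 0.85 (adjusted p = 0.0429). Egr1, a growth-induced factor, ranged widely within both groups, with 8.36, 9.93 and 7.88 in the HFGC group and 9.80, 11.01 and 9.17 in the HF group (adjusted p = 0.184). Dusp1, a phosphatase that stops stress kinases, had a difference of -0.78 with no overlap (adjusted p = 0.0987). None of the 6 called genes of this group passed without HF replicate 2 (adjusted p from 0.101 to 0.196), HF replicate 3 (0.0647 to 0.108) or HFGC replicate 3 (0.0509 to 0.122). Without HFGC replicate 1 and 2 the counts were 1 and 3, and with the covariate the differences were between -0.58 and -0.32.

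No enzyme of cholesterol synthesis was called by limma. Of 21 measured genes of cholesterol synthesis and SREBP2 targets, 19 lay above 0 and 2 below, with a median of 0.34, 6 had an unadjusted p under 0.05, and only Stard4, which is no enzyme of the synthesis, was called. Stard4, which carries cholesterol between membranes, was at 9.92, 10.16 and 10.13 in the HFGC group, against 9.53, 9.43 and 9.56 in the HF group. It rose by 0.56 (standard error 0.15, adjusted p = 0.0492), with 0.80 and -0.03 in its other probe sets. The 3 largest differences of the list were in the enzymes Mvd, Fdps and Sqle, and did not pass. Mvd, which decarboxylates mevalonate diphosphate, was measured at 8.44, 9.05 and 9.18 in the HFGC group, and at 7.90, 7.97 and 7.65 in the HF group. The groups did not overlap, and the difference of 1.05 did not pass (adjusted p = 0.105). For Fdps, which makes farnesyl diphosphate, the values were 9.80, 10.52 and 10.97 in the HFGC group and 9.51, 9.48 and 9.20 in the HF group, and for Sqle, the epoxidase of squalene, 9.45, 10.04 and 10.70 in the HFGC group and 9.42, 9.10 and 8.75 in the HF group (adjusted p = 0.159 and 0.428). In each of these genes HFGC replicate 1 was the lowest of its group, and in Sqle it was level with HF replicate 1. The ND group was far below both, at 5.86 ± 0.24 for Mvd, 6.87 ± 0.16 for Fdps and 6.29 ± 0.24 for Sqle (SD, n = 3 each). Several well-known members of the pathway were not analysed here.

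Of 20 measured genes of fatty acid synthesis and desaturation none was called by limma (1 at an unadjusted p under 0.05), with a median of -0.08. Scd1, which makes monounsaturated fatty acids, was at 12.68, 12.73 and 13.75 in the HFGC group and 13.55, 13.57 and 13.70 in the HF group (adjusted p = 0.207), with HFGC replicate 3 above all HF arrays and the other HFGC arrays below them. Acsl3, which activates fatty acids with coenzyme A on the surface of lipid droplets and the endoplasmic reticulum, had log2 intensities of 7.93, 8.49 and 8.56 in the HFGC group, against 7.64, 7.47 and 7.27 in the HF group. It rose by 0.87 (standard error 0.21, adjusted p = 0.042). The calls of Stard4 and Acsl3 were lost without HF replicate 2 (adjusted p = 0.188 and 0.163) or HF replicate 3 (adjusted p = 0.125 and 0.15), or without any HFGC array (adjusted p from 0.0503 to 0.125).

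Some chaperones and proteins of the endoplasmic reticulum were higher in the HFGC group. Of 23 measured genes of the endoplasmic reticulum stress response 2 rose, 0 fell and 21 did not pass, beside 0.781% called higher over all genes. In this list 21 lay above 0, and the median was 0.48. An unadjusted p under 0.05 in limma was reached by 16 of the 23, beside 3747 of 18193 over all genes. Pdia3, a disulfide isomerase that folds glycoproteins, was at 11.97, 12.06 and 11.55 in the HFGC group, and at 11.42, 10.88 and 11.01 in the HF group. It rose by 0.76 (standard error 0.16, adjusted p = 0.0326). Selenok, a selenoprotein of the membrane of the endoplasmic reticulum, was measured at 11.02, 10.91 and 10.64 in the HFGC group, against 10.47, 9.73 and 10.04 in the HF group. It rose by 0.78 (standard error 0.17, adjusted p = 0.0306), and HF replicate 1 lay just below the lowest HFGC array. The chaperone Hspa5, also known as BiP, whose level is commonly used as a gauge of this response, was at 14.06, 14.02 and 13.67 in the HFGC group and 13.84, 13.62 and 13.58 in the HF group (adjusted p = 0.241). Its difference was 0.24, and its other probe sets were at 0.45 (adjusted p = 0.0921 over all probe sets) and 0.17.

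The largest differences of the list were in members that did not pass. Sdf2l1, a partner of Hspa5, had a difference of 0.92 (adjusted p = 0.0894), Ddit3, a factor that promotes cell death under stress, 0.91 (adjusted p = 0.0652), and Creld2, a disulfide isomerase, 0.90 (adjusted p = 0.0584). In these 3 genes HFGC replicates 1 and 2 were high and HFGC replicate 3 lay within the HF range, as for Creld2 with 12.40, 12.33 and 11.18 in the HFGC group and 11.49, 10.90 and 10.81 in the HF group. The count of called genes of the list was 4 without HFGC replicate 3 and 10 without HF replicate 1, and it was 0 without any other HFGC or HF array. Other genes of this compartment, chosen after their values were seen, were called too. Edem3, which trims misfolded glycoproteins for destruction, rose by 0.67 (adjusted p = 0.0265), Eif2ak3, the kinase PERK that slows translation under stress, by 0.63 (adjusted p = 0.0354), Serp1, which stabilises membrane proteins, by 0.60 (adjusted p = 0.0496), and Ostc, a subunit of the complex that attaches sugars, by 0.61 (adjusted p = 0.0492).

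The cytosolic chaperones named here come from no list, so that no share of such genes is given. Hspa4l, a member of the HSP110 family, had log2 intensities of 8.46, 8.20 and 8.02 in the HFGC group, and 7.54, 7.22 and 7.29 in the HF group. It rose by 0.88 (standard error 0.14, adjusted p = 0.0161), and its other probe sets were at 0.88, 1.06, 0.57 and 0.33. The ND group, at 8.46 ± 0.11 (SD, n = 3), was level with the HFGC group. Its relative Hsph1, which helps Hsp70 proteins exchange nucleotide, was at 11.49, 11.20 and 10.82 in the HFGC group, against 10.63, 10.44 and 10.47 in the HF group. HFGC replicate 1 was the highest array, and Hsph1 rose by 0.66 (standard error 0.17, adjusted p = 0.0476). Hsp90aa1, the inducible cytosolic HSP90, was measured at 13.02, 13.02 and 12.70 in the HFGC group, and at 12.60, 12.10 and 12.25 in the HF group. It rose by 0.60 (standard error 0.14, adjusted p = 0.034), and its other probe sets were at 1.31, 0.24, 0.11 and 0.42. Cacybp, a co-chaperone of protein degradation that binds HSP90, rose by 0.67 (standard error 0.12, adjusted p = 0.019). These last 3 were also chosen after their values were seen. Of the 10 genes of folding called here, none passed without HF replicate 2 (adjusted p from 0.101 to 0.214) or HF replicate 3 (0.0647 to 0.156), and 1, 1 and 5 passed without HFGC replicate 1, 2 and 3. With the covariate their differences were between 0.10 and 1.12.

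**Figure D3:**
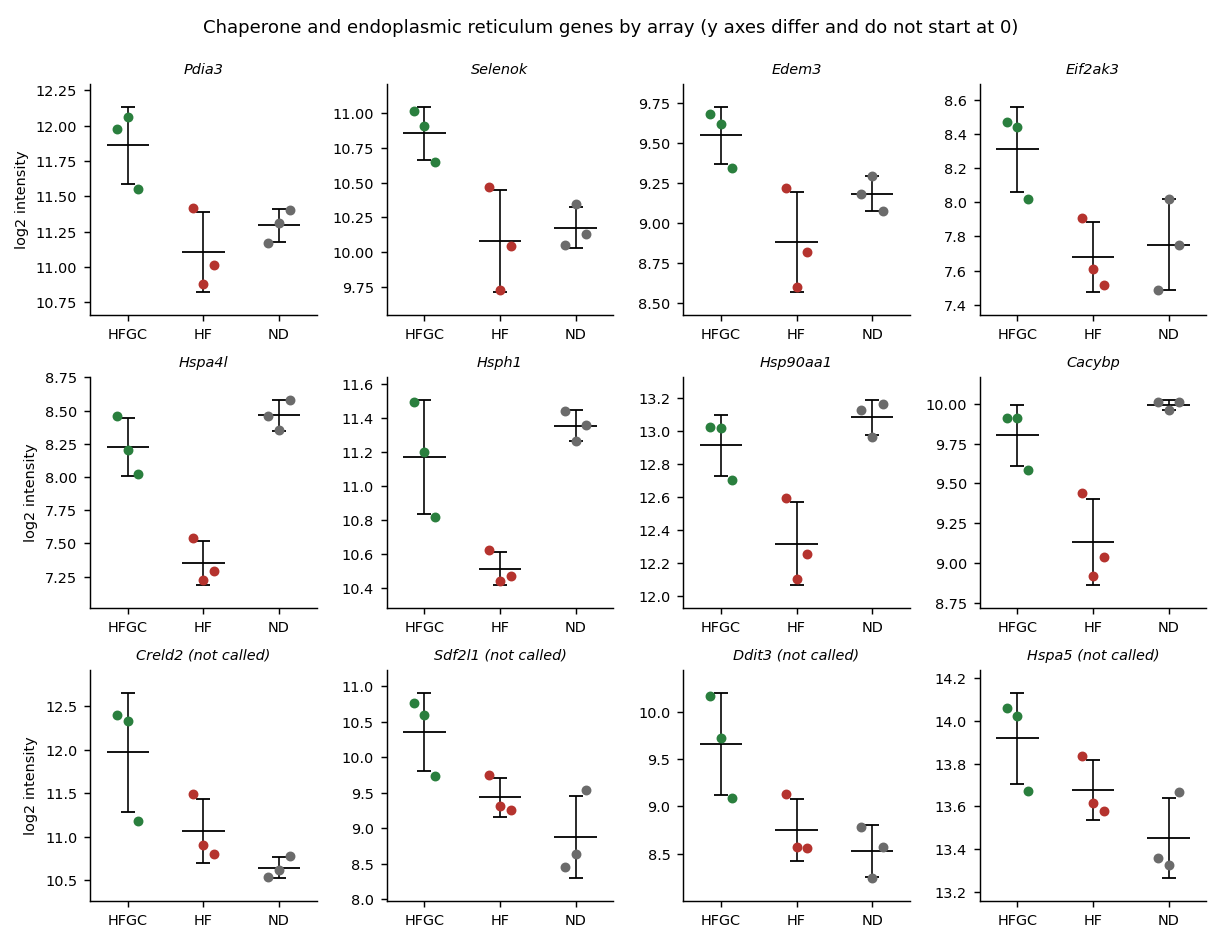
Log2 intensity of 12 chaperone and endoplasmic reticulum genes in each HFGC, HF and ND array (points, 3 per group), with a line at the mean and a bar for the SD; the 4 in the last row were not called. HFGC replicate 3 is the lowest point of its group in each gene, for Creld2 at 11.18 with the other HFGC arrays at 12.40 and 12.33, and the HF arrays of Creld2 reach 11.49.

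Promoter stretches of 3 folding genes are shown because many genes of this kind are known to be controlled through either of 2 elements, the heat shock element bound by HSF1 and the endoplasmic reticulum stress element bound by ATF6. RefSeq promoter windows of GRCm38.p6, from 250 bases before to 50 bases after a start, were held for 12 of the 14 folding genes named above and numbered 32851 in all. The heat shock element was searched on both strands as 3 blocks, TTC, GAA and TTC, each 2 bases of any kind apart. It was in 198 windows (0.603%), and of these genes in Hsph1 alone. The endoplasmic reticulum stress element was searched on both strands as 2 blocks, CCAAT and CCACG, with 9 bases of any kind between them. It was in 39 windows (0.119%), and of these genes in Hspa5 and Creld2. The stretches round the matches, 30 bases each on the strand of the gene and with the match in capitals, were as follows.
Hsph1: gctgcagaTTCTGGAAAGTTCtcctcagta
Hspa5: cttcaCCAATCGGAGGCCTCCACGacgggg
Creld2: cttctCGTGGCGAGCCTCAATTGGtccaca

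The Hsph1 stretch lies at chr5:149636279-149636308 on the minus strand, with the match 16 to 28 bases downstream of one transcription start and 37 to 49 bases downstream of the other. The Hspa5 stretch lies at chr2:34772020-34772049 and the Creld2 stretch at chr15:88819515-88819544, both on the plus strand, with the matches 65 to 47 and 126 to 108 bases before the start. In Creld2 the element runs on the opposite strand. A match is a description of letters only, and of the 3 genes Hsph1 was called and Hspa5 and Creld2 were not.

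The other highest genes had varied roles. Ifrd1, a co-regulator of transcription induced by growth factors and stress, had log2 intensities of 9.07, 8.58 and 8.86 in the HFGC group, against 8.07, 7.12 and 7.64 in the HF group. It had the largest rise of all called genes, 1.23 (standard error 0.19, adjusted p = 0.0161), or 2.34-fold, with HF replicate 2 the lowest array and HF replicate 1 the nearest to the HFGC group. Piga, which starts the synthesis of the lipid anchor of cell surface proteins, was at 8.91, 8.85 and 8.29 in the HFGC group, and at 8.07, 7.41 and 7.42 in the HF group. Piga rose by 1.05 (standard error 0.18, adjusted p = 0.0161). Chsy3, an enzyme of chondroitin synthesis, rose by 1.14 (adjusted p = 0.0217), but it is in the dim range, at 5.46, 5.49 and 5.20 in the HFGC group and 4.67, 3.68 and 4.38 in the HF group, and its other probe set was at -0.03. The clock gene Per2, a repressor of the circadian cycle, was the only call among 19 measured clock genes, beside 0.781% called higher over all genes. It was measured at 8.62, 8.99 and 9.01 in the HFGC group, against 8.44, 7.71 and 8.03 in the HF group. Per2 rose by 0.82 (standard error 0.16, adjusted p = 0.0265), with -0.0019 and 0.18 in its dimmer probe sets. The hour at which the livers were taken was not given in the sources used here.

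St3gal4, a sialyltransferase, rose by 0.77 (adjusted p = 0.0161), Gnpnat1, which makes the amino sugar of glycoproteins, by 0.72 (adjusted p = 0.0369), and Golim4, a protein of the Golgi membrane, by 0.70 (adjusted p = 0.0476) with -0.43 in a dim probe set. Snap23, which drives the fusion of vesicles, rose by 0.76 (adjusted p = 0.0427), Tmem41b, which moves phospholipids across the membrane of the endoplasmic reticulum, by 0.77 (adjusted p = 0.0161), and Nucb2, the precursor of nesfatin, by 0.83 (adjusted p = 0.0399). Akr1c14, a hydroxysteroid dehydrogenase, rose by 0.78 (adjusted p = 0.034), the splicing factor Tra2a by 0.75 (adjusted p = 0.0265), Fndc3a by 0.72 (adjusted p = 0.0243), Cep170, a centrosome protein, by 0.93 (adjusted p = 0.0294), Cxadr, the receptor of coxsackieviruses and adenoviruses and a junction protein, by 0.93 (adjusted p = 0.0326), and Gsdme, which forms pores in dying cells, by 0.94 (adjusted p = 0.034). Other probe sets of these genes did not all follow, with -0.24 for Gsdme, 0.20 for Cep170, 0.46, 0.07, 0.19 and -0.03 for Cxadr, 0.02 and 0.08 for Fndc3a and 0.14, 0.02, -0.53, -0.03 and -0.07 for Tra2a. Those of Tmem41b were at 0.65, 0.11, 0.30, 0.28 and 0.33, those of Snap23 at 0.91 and 0.22, and those of Gnpnat1 at 0.24, 0.71 and 0.25. Of the 16 genes of these 2 paragraphs none passed without HF replicate 2 (adjusted p from 0.101 to 0.212) or HF replicate 3 (0.0647 to 0.151), and 3, 4 and 4 passed without HFGC replicate 1, 2 and 3. With the covariate the differences were between 0.007 and 1.20.

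Of the 20 largest falls, 11 were in genes not described above. Pnldc1, an exonuclease that trims small RNAs, had log2 intensities of 6.96, 6.83 and 7.02 in the HFGC group, and 8.21, 8.50 and 7.95 in the HF group. It fell by 1.28 (standard error 0.20, adjusted p = 0.0161), or 2.43-fold. Ildr2, a membrane protein of the endoplasmic reticulum that has been tied to fat in mouse liver, was at 7.78, 7.59 and 7.37 in the HFGC group, against 8.23, 8.69 and 8.93 in the HF group. It fell by 1.04 (standard error 0.18, adjusted p = 0.0161), and its other probe sets were at -0.84 and -0.50. Wfdc2, a small secreted protease inhibitor, was measured at 7.25, 6.84 and 7.03 in the HFGC group, and at 7.76, 8.15 and 8.12 in the HF group. It fell by 0.97 (standard error 0.15, adjusted p = 0.0161). Aqp8, a water channel of the bile canaliculus, had log2 intensities of 8.82, 8.46 and 9.05 in the HFGC group, against 9.49, 9.78 and 9.82 in the HF group. It fell by 0.92 (standard error 0.23, adjusted p = 0.0469). The other falls were in Rfx4 (-0.90), Gprin3 (-0.89), Sh3pxd2a (-0.86), Aatk (-0.85), Taok3 (-0.85), Olig1 (-0.85) and Zbed6 (-0.80), with adjusted p between 0.0178 and 0.0452. Rfx4 and Sh3pxd2a each had another probe set, at 0.14 and 0.14. None of the 11 passed without HF replicate 2 (adjusted p from 0.101 to 0.188) or HF replicate 3 (0.0624 to 0.151), and 6, 3 and 4 passed without HFGC replicate 1, 2 and 3.

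The urea cycle, which turns ammonia into urea, was a subject of the study. Of 9 measured genes of the cycle and its carriers none was called by limma (3 at an unadjusted p under 0.05), 7 lay above 0, and the median was 0.11 (-0.03 with the covariate). The aspartate carrier Slc25a13 was at 11.39, 11.52 and 11.65 in the HFGC group, and at 11.38, 10.62 and 11.07 in the HF group. The groups barely separated, since HF replicate 1 at 11.38 lay next to HFGC replicate 1 at 11.39, and the difference of 0.50 did not pass (adjusted p = 0.073). Cps1, which brings ammonia into the cycle, was measured at 13.79, 13.69 and 14.00 in the HFGC group, against 13.65, 13.37 and 13.60 in the HF group. Its difference was 0.29 (adjusted p = 0.17). Arg1, the arginase that releases urea, had log2 intensities of 13.16, 13.12 and 13.61 in the HFGC group, and 13.09, 12.85 and 12.97 in the HF group. The difference was 0.33 (adjusted p = 0.139), with HFGC replicate 3 apart from the others. Asl, the argininosuccinate lyase, differed by 0.37 (95% interval -0.07 to 0.82, adjusted p = 0.326), and Otc, which makes citrulline, by 0.11 (95% interval -0.12 to 0.33, adjusted p = 0.629). Ass1, the argininosuccinate synthetase, was at -0.02 (95% interval -0.67 to 0.63). Its probe set had means of 6.64 in the HFGC group and 6.66 in the HF group, far below those of Cps1 and Arg1. How well that probe set follows the Ass1 transcript of liver was not tested. Nags, which makes the activator of Cps1, was at -0.06 (-0.22 to 0.11). The ornithine carrier Slc25a15 was at 0.06 (-0.13 to 0.25), with 0.63 in a dimmer probe set (adjusted p = 0.0893 over all probe sets). Arg2, the arginase of other tissues, was at 0.02 (-0.17 to 0.20) on a dim probe set. These intervals are those of single genes with no adjustment.

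In the breakdown of amino acids 1 of 38 measured genes fell, 0 rose, and the median was -0.05. Over all genes 2.31% were called lower. The gene called was Bckdha, a subunit of the complex that breaks down branched-chain amino acids. Bckdha was at 10.31, 10.35 and 10.49 in the HFGC group, against 10.59, 10.93 and 10.85 in the HF group. It fell by 0.41 (standard error 0.09, adjusted p = 0.034). Tat, which breaks down tyrosine, and Got1, an aspartate aminotransferase, had larger differences, 0.74 and 0.85, that did not pass (adjusted p = 0.106 and 0.143). The TCA cycle, which oxidises acetyl groups in mitochondria, held 1 called gene of 19 measured, with a median of -0.0085. Ogdh, the first subunit of 2-oxoglutarate dehydrogenase, was measured at 8.43, 8.36 and 8.42 in the HFGC group, and at 8.62, 9.07 and 8.94 in the HF group. It fell by 0.48 (standard error 0.10, adjusted p = 0.0326). The gene Dld, whose subunit the Ogdh and Bckdha complexes share, was at 0.40 (adjusted p = 0.0798). Idh3a, a subunit of isocitrate dehydrogenase, was at 0.30 (adjusted p = 0.395), and its dimmer probe sets were at -0.27, -0.31 and 0.10. Sucla2, a subunit of succinyl-CoA synthetase, was at 0.06 (adjusted p = 0.666). Of the 66 measured genes of the respiratory chain only Ndufv3, a subunit of complex I, was called. It fell by 0.31 (standard error 0.07, adjusted p = 0.0326), and the median was -0.04. Of 12 measured genes of TCA and redox enzymes near proteins of the study 0 were called (4 at an unadjusted p under 0.05), with differences between -0.21 and 0.42. This list is not the set of proteins that the study identified. Ogdh, Bckdha and Ndufv3 did not pass without any 1 of HF replicate 2, HF replicate 3 and the HFGC arrays (adjusted p from 0.0559 to 0.163), and with the covariate lay between -0.33 and -0.19.

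Genes that handle foreign compounds are given list by list, beside 0.781% called higher and 2.31% called lower over all genes. Cyp1a2, the enzyme that clears caffeine, was chosen after its values were seen. It was at 11.94, 12.06 and 11.88 in the HFGC group and 11.94, 11.98 and 12.24 in the HF group, a difference of -0.09 (95% interval -0.29 to 0.10, adjusted p = 0.632). Of 13 measured genes of AhR targets and caffeine metabolism 1 rose, Arnt, the partner of AhR, with 7.94, 7.93 and 8.04 in the HFGC group and 7.77, 7.61 and 7.72 in the HF group. Its rise was 0.27 (standard error 0.06, adjusted p = 0.034), and its other probe sets were at 0.29, 0.30, -0.08 and 0.19. None of the 19 measured targets of CAR and PXR was called (4 at an unadjusted p under 0.05), and none of the 34 genes of NRF2 and glutathione (7 at an unadjusted p under 0.05). Over all genes, 3747 of 18193 had an unadjusted p under 0.05. Cyp2b9, a cytochrome of the CYP2B family, varied widely, with 9.12, 7.21 and 8.07 in the HFGC group, 8.84, 10.16 and 9.80 in the HF group and 4.92 ± 0.11 (SD, n = 3) in the ND group, and its difference of -1.47 did not pass (adjusted p = 0.325). Cyp2c38, another cytochrome, was at -0.69 (adjusted p = 0.074).

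Among 19 conjugating enzymes 2 rose and 1 fell, with a median of 0.17. Ugt2b1, which attaches glucuronic acid, had log2 intensities of 12.50, 12.71 and 12.57 in the HFGC group, against 12.26, 11.76 and 12.19 in the HF group. It rose by 0.52 (standard error 0.13, adjusted p = 0.0492). Papss1, which makes the sulfate donor, rose by 0.53 (standard error 0.14, adjusted p = 0.0492), with HFGC replicate 3 at 8.09 next to HF replicate 1 at 8.06. Sult1c2, a sulfotransferase, was at 5.81, 6.05 and 5.94 in the HFGC group, and at 6.33, 6.84 and 6.88 in the HF group. It fell by 0.75 (standard error 0.16, adjusted p = 0.0271). The 4 calls of Arnt, Ugt2b1, Papss1 and Sult1c2 were lost without HF replicate 2 (adjusted p from 0.142 to 0.211), HF replicate 3 (0.101 to 0.158) or any HFGC array (0.054 to 0.147).

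**Figure D4:**
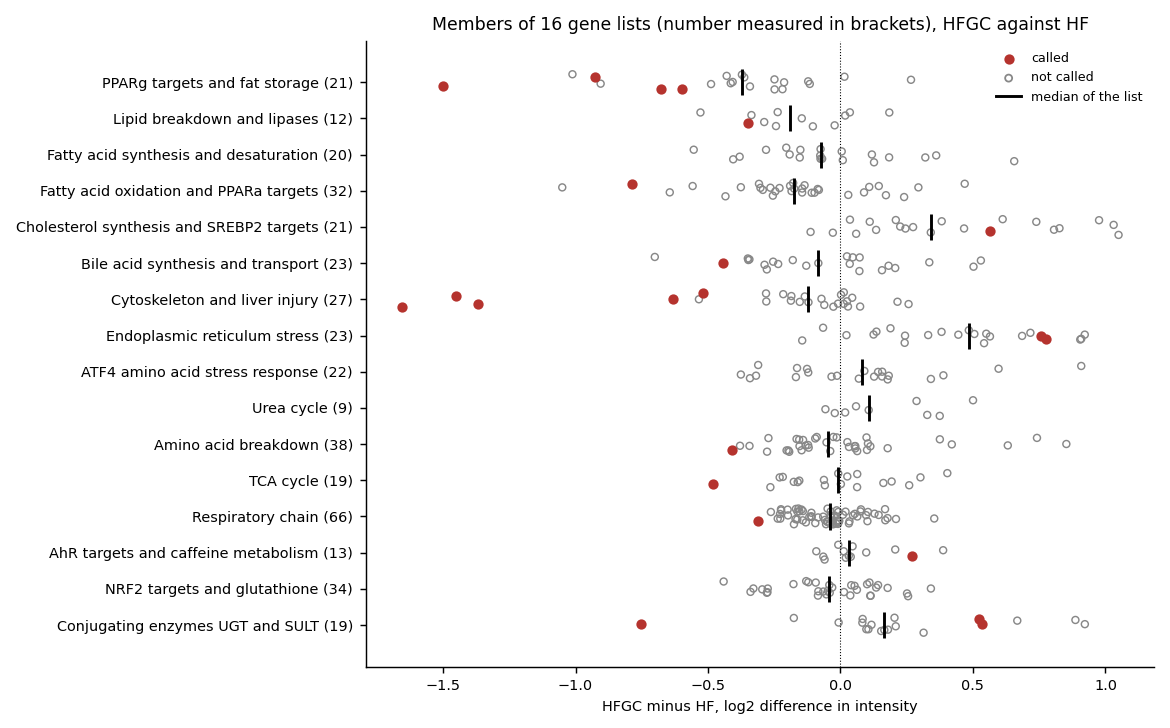
Log2 difference, HFGC minus HF, of each measured member of 16 gene lists (points; filled where called, open where not) with the median of the list (black tick) and the number measured in brackets. The tick of the endoplasmic reticulum list lies at 0.48 and that of the fat storage list at -0.37, beside 0.0088 over all genes.

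The tissue matched its label. All 8 measured hepatocyte markers lay at percentile 98.3 or above among the levels of all genes, and their summed intensity ranged over 127822 to 133023 in the HFGC group and 124941 to 128512 in the HF group. In bulk tissue, fewer cells of a type and less RNA per cell cannot be told apart. Of the 9 endothelial markers 4 lay above 0 and 5 below, and 0 were called higher and 2 lower, beside 2.31% called lower over all genes. The 2 were the scavenger receptors Stab1 and Stab2 of liver sinusoids. They fell by 0.37 (adjusted p = 0.0338) and 0.40 (adjusted p = 0.0265), while the summed intensity of the 9 ranged over 3158 to 3310 in the HFGC group and 3098 to 3339 in the HF group. The 4 above 0 included Lyve1, with means of 8.08 in the HFGC group and 7.75 in the HF group, and Clec4g, with 10.24 and 10.04. Of the 9 stellate cell markers 1 fell, Ecm1, by 0.41 (adjusted p = 0.034), with a summed intensity of 3485 to 4336 in the HFGC group and 4507 to 5064 in the HF group. No marker of macrophages and monocytes (13 measured), cholangiocytes (6), T and NK cells (8), B cells (6), neutrophils (6), fat cells (3), red blood cells (3), pancreatic acinar cells (5) or proliferation (9) was called by limma. The summed macrophage markers ranged over 6216 to 8290 in the HFGC group and 7901 to 8345 in the HF group, and Clec4f, which marks Kupffer cells, was at -0.43 with no overlap (adjusted p = 0.153). The 3 fat cell markers had a summed intensity of 93.2 to 103 in the HFGC group and 83.2 to 104 in the HF group. The part of these cells in the differences of fat storage genes was not tested.

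Of 23 acute phase proteins none was called by limma (2 at an unadjusted p under 0.05). Of 25 interferon and antigen genes 1 fell, Oas1a, a sensor of double-stranded RNA, by 0.45 (adjusted p = 0.0295). Over all genes 2.31% were called lower. The calls of Stab1, Stab2, Ecm1 and Oas1a were lost without HF replicate 2 (adjusted p from 0.101 to 0.163), HF replicate 3 (0.0647 to 0.117), HFGC replicate 1 or HFGC replicate 3, and 1 of them passed without HFGC replicate 2. The largest difference of any gene, called or not, was in Hamp, which encodes hepcidin, the hormone that limits iron uptake. Hamp was measured at 8.87, 9.31 and 9.83 in the HFGC group, against 6.04, 4.67 and 4.99 in the HF group. The difference was 4.10 (standard error 1.49) and did not pass (adjusted p = 0.13), and with the covariate it was -0.14. Hamp also ranged from 4.01 to 9.53 in the HFCC group, from 5.36 to 10.92 in the HFDC group and from 5.73 to 10.90 in the ND group. Lists of collagen and matrix (21 measured), iron (18), ATF4 targets (22), the growth hormone axis (19), hepatokines (15) and the proteasome (31) held no called gene, with medians between -0.08 and 0.08 and 3 to 9 genes at an unadjusted p under 0.05.

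Green coffee was also set against the other coffees, in contrasts of the same fit that do not use the HF means. Against the HFCC group, which received caffeinated coffee, limma called 0 of 18193 genes (0%; 464 at an unadjusted p under 0.05). Of the 13 called genes of fat handling and of the injury list, 2 had an HFGC minus HFCC interval below 0, 0 above it and 11 on both sides. The intervals below 0 were those of Cd36, at -0.63 (95% interval -1.08 to -0.18), and Abhd5, at -0.20 (95% interval -0.39 to -0.02). Lgals1 was at -0.63 (95% interval -1.30 to 0.04), Plin4 at -0.19 (95% interval -0.55 to 0.16) and Osbpl3 at -0.08 (95% interval -0.35 to 0.18). Fabp4, which was not called against the HF group, was at -0.87 (95% interval -1.64 to -0.11). These intervals are those of single genes with no adjustment. Against the HFDC group, which received decaffeinated coffee, 7 genes were called (0.0385%; 1226 at an unadjusted p under 0.05). Per1, a repressor of the circadian clock that glucocorticoids induce, was at 8.17, 8.23 and 7.86 in the HFGC group and 7.28, 6.96 and 7.32 in the HFDC group. It was higher by 0.90 (standard error 0.13, adjusted p = 0.0378). Tsc22d3, the glucocorticoid-induced leucine zipper, was at 10.47, 10.68 and 11.11 in the HFGC group and 9.96, 9.59 and 9.62 in the HFDC group, higher by 1.03 (standard error 0.16, adjusted p = 0.0378). Kctd7, whose protein carries a potassium channel tetramerisation domain, was higher by 0.69 (adjusted p = 0.0378) on a dim probe set. Its brighter probe set, which can bind several transcripts, was at -0.0033 in the comparison with the HF group.

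Dyrk2, a kinase of the cell cycle and DNA damage response, was at 8.69, 9.03 and 8.87 in the HFGC group and 9.46, 9.56 and 9.47 in the HFDC group, a difference of -0.63 (standard error 0.09, adjusted p = 0.0378). Pnpla7, a lysophospholipase, was at 10.44, 10.53 and 10.47 in the HFGC group and 11.23, 11.01 and 11.06 in the HFDC group, a difference of -0.62 (standard error 0.10, adjusted p = 0.0415). Cmtm6, which stabilises PD-L1 at the cell surface, differed by -0.57 and Lin9, a part of the DREAM complex of the cell cycle, by -0.47 on a dim probe set (adjusted p = 0.0378 for both). Against the HFCC group these 7 genes differed by between -0.18 and 0.29. Against the HF group Kctd7 rose by 0.68 and Dyrk2 fell by 0.55 (adjusted p = 0.0161 and 0.0161), and the other 5 did not pass. The dimmer probe sets of Dyrk2 were at -0.22, -0.14 and -0.28 in that comparison (adjusted p = 0.307, 0.45 and 0.125 over all probe sets). A dimmer probe set of Tsc22d3 was at 0.98 against the HF group, with an adjusted p of 0.0395 over all probe sets. Neither the call of Kctd7 nor that of Dyrk2 held without HF replicate 2 (adjusted p = 0.101 and 0.101) or HF replicate 3 (0.0647 and 0.0647). The call of Dyrk2 was also lost without HFGC replicate 1 or 3 (0.0578 and 0.0528). The count was 0 without HFGC replicate 1, HFDC replicate 2 or HFDC replicate 3, 2 without HFGC replicate 2, 3 without HFGC replicate 3 and 22 without HFDC replicate 1, and 1 with the covariate.

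**Figure D5:**
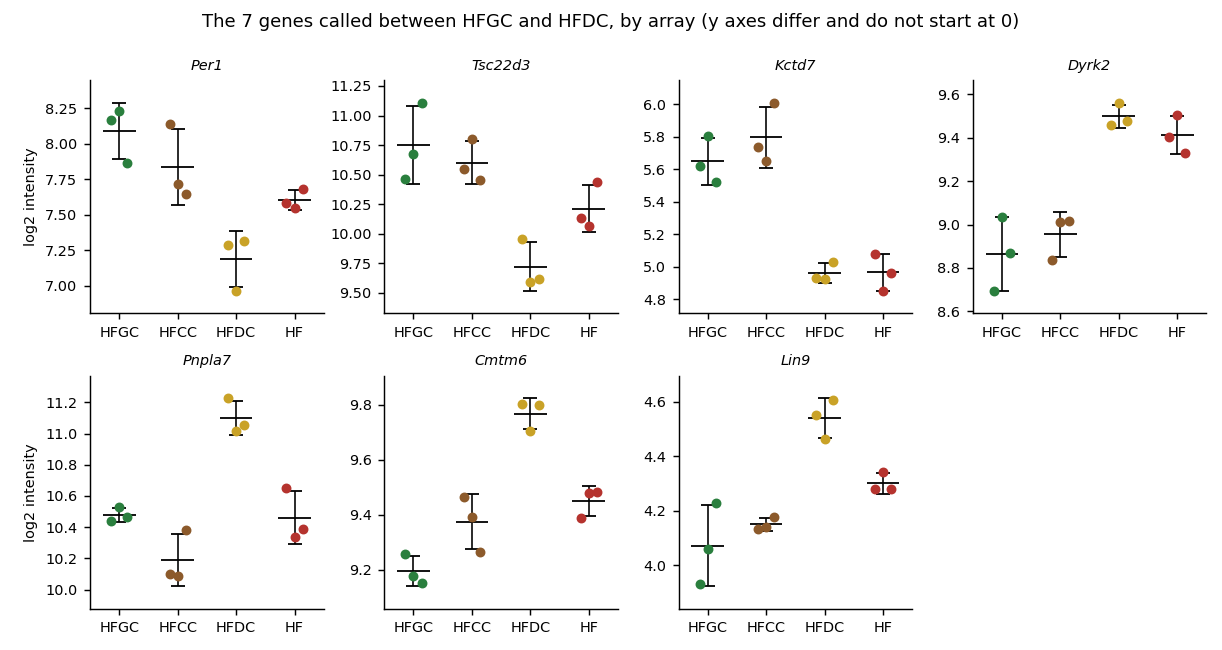
Log2 intensity of the 7 genes called between the HFGC and HFDC groups, in each HFGC, HFCC, HFDC and HF array (points, 3 per group), with a line at the mean and a bar for the SD. The 7 genes were chosen by the difference between the HFGC and HFDC groups, and the points of Per1 lie between 7.86 and 8.23 in the HFGC group and between 6.96 and 7.32 in the HFDC group.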

How the data were processed

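Liver RNA of 15 mice was hybridised to Affymetrix Mouse Genome 430 2.0 arrays, 1 array a mouse. The deposited values are intensities that the authors normalized by RMA, and the version of the software was not given in the sources used here. Array medians ranged from 48.45 to 49.95. For the work reported here, log2 was taken of the deposited intensities. Of 45101 probe sets, 34945 had 1 gene symbol in the platform annotation, 932 had several and 9160 had none, and 34741 were matched to GRCm38.p6 by gene ID. Each of 18193 genes was represented by its brightest probe set over all arrays. Sets named with _x_at, a mark of possible binding to other transcripts, served only genes without another set. Sets named with _s_at, which may also bind other transcripts, were ranked by brightness like the rest. Plin5, Foxo1, Tmsb10, Acsl3, Selenok, Arnt and Mvd were among the genes measured by an _s_at set although another set existed. One limma model (version 3.58.1, R 4.3.3) with 5 group means and 10 residual degrees of freedom was fitted to all 15 arrays, and p-values were adjusted over all genes by the Benjamini-Hochberg method with a threshold of 0.05. Arrays have no read depth, and the number of arrays limits the precision.

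Named genes were, for the HFGC and HF groups, the 20 called genes with the largest difference in each direction whose arrays did not overlap, all called members and up to 3 others of each gene list, every urea cycle gene and every gene called against the other coffees, and not all were named. Pparg, Plin2, Serp1, Ostc, Edem3, Eif2ak3, Hsph1, Hsp90aa1, Cacybp, Hspa5 and Cyp1a2 were chosen after their values were seen. The groups and the gene lists were chosen with earlier results of these data known. Genes of the lists without a value were not analysed here. Alternatives changed the normalization, the offset, the probe set rule, the filter on dim genes, the variance model, the threshold, the arrays and the covariate. Samples of the 2 groups with the same replicate number did not deviate together (correlations of 0.072, -0.047 and 0.095), so the numbers only name samples.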

Additional observations from a re-analysis of the deposited data

Results flagged for a closer look

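The effects of green and of decaffeinated coffee, each against the HF group, differed in 7 genes, where the difference was tested in limma as the HFGC group minus the HFDC group. It was 0.90 for Per1, 1.03 for Tsc22d3, 0.69 for Kctd7, -0.63 for Dyrk2, -0.62 for Pnpla7, -0.57 for Cmtm6 and -0.47 for Lin9, with adjusted p of 0.0378 or, for Pnpla7, 0.0415. Both effects share the HF arrays, which cancel in the difference.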

How the results depend on the processing

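Green coffee against the high-fat diet alone gave 142 genes higher and 421 lower, and these counts moved with the setting. They were 0 and 0 with the 3' minus 5' covariate, 1 and 8 with the 2 groups alone, 220 and 221 with cyclic loess, 320 and 842 over every probe set, 260 and 736 among genes at or above the median level, 72 and 279 with probe sets averaged, 551 and 1030 at an adjusted p under 0.10, and 47 and 57 at 1.5-fold or more. Without 1 array they ranged from 0 to 751 higher (0 without HF replicate 2 or 3, 751 without HF replicate 1) and from 2 to 1109 lower (2 without HF replicate 2 or 3, 1109 without HF replicate 1). With HF replicate 1 as the only HF array, which was chosen after seeing the data and assumes that this mouse varies like the other groups, they were 0 and 1. An offset of 32 and a variance trend with robust fitting left both within 1.5 times. The 3' minus 5' difference was -0.39 from Gapdh or Actb alone, also chosen after seeing the data. The HFCC count of 0 was 1 over every probe set and 0 in all other settings. The HFDC count of 7 was 1 with the covariate, 0 over every probe set, with the offset or with the 2 groups alone, 3 with probe sets averaged, and 0 to 22 without 1 array. The cause of these changes was not tested.

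With the replicate number as a block, the counts against the HF group were 110 higher and 382 lower, and those against the HFCC and HFDC groups were 0 and 0. The numbers only name samples.

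The direction of some named genes that were not called turned in some settings. With the covariate the differences were 0.034 for Fabp4, 0.48 for Egr1, -0.047 for Slc25a13, -0.23 for Otc, -0.025 for Arg1, -0.0036 for Arg2, -0.027 for Slc25a15, -0.086 for Dld, -0.15 for Idh3a, -0.059 for Sucla2, -0.025 for Tat, -0.14 for Hamp and -0.13 for Pnpla7. Arg2 was at -0.018 with cyclic loess and -0.0002 with probe sets averaged, and Idh3a at -0.045 with probe sets averaged. Without 1 array, Ass1 ranged from -0.28 (HF replicate 2) to 0.24 (HF replicate 3), with 0.096 without HFGC replicate 1, Arg2 from -0.056 (HFGC replicate 3) to 0.091 (HFGC replicate 2), Nags from -0.12 (HFGC replicate 3) to 0.017 (HFGC replicate 1), Slc25a15 from -0.019 (HFGC replicate 3) to 0.13 (HFGC replicate 2), and Pnpla7 from -0.042 (HF replicate 2) to 0.11 (HF replicate 1), with -0.02 without HF replicate 3 and -0.0077 without HFGC replicate 2. Cyp1a2 was at 0.0022 without HF replicate 3. Of the 71 called genes named here none turned in any setting. In 562 of the 563 called genes the HFGC and HF arrays did not overlap, so that leaving out 1 array could not turn them. With the covariate, which could turn a gene, 562 of the 563 kept their sign.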
